A study of Mus musculus with 16 samples.

Results

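The homeostatic microglia signature genes are those by which resting microglia, the resident macrophages of the brain, are told from other brain cells and from blood-derived macrophages. The 9 genes taken here were P2ry12, P2ry13, Gpr34, Tmem119, Cx3cr1, Siglech, Sall1, Csf1r and Trem2, found by symbol in a table of 33289 Ensembl gene IDs. All 9 were in the table and all 9 were among the 17349 genes tested. The rule that picks them reads symbols only, but the list itself was chosen with earlier results of these data known. The libraries were made from total RNA of hemi-brains of C57BL/6J mice, 3 to 4 months of age and perfused with PBS. At 8 h before sampling the mice had been injected with lipopolysaccharide (LPS), which cells sense through the receptor encoded by Tlr4, or with saline. The 4 groups were LPS libraries labelled Lcn2-/-, LPS libraries of wild type (WT), saline libraries labelled Lcn2-/- and WT saline libraries, with 4 libraries each and 16 in all. Lcn2 encodes lipocalin-2, a secreted siderophore-binding protein, and the series is titled for its part in the inflamed brain. Nothing in the labels says that cells were sorted, so every value is an average over all cells of a hemi-brain, in which microglia are a minority. The values were log2 RPKM, a read density corrected for gene length and library size that the authors normalized further, and are given here as RPKM or as differences on the log2 scale.

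Microglia at rest scan the tissue with fine processes and are held in that state by signals from their neighbours. P2ry12 and P2ry13 are receptors for ADP, which leaks from injured cells and draws microglial processes towards it, and Gpr34 is a receptor for lysophosphatidylserine. Cx3cr1 binds the neuronal chemokine fractalkine, and Csf1r binds the growth factors Csf1 and Il34, on which microglial survival depends. Siglech, a sialic acid-binding lectin, and Trem2, a receptor for lipids and apolipoproteins, both signal through the adaptor DAP12, encoded by Tyrobp. Tmem119 is a membrane protein used as a microglia marker, and Sall1 is a zinc finger transcription factor that maintains microglial identity. Several of these genes are known to fall when microglia are activated by LPS.

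The genes lie on 8 chromosomes of the mouse (GENCODE vM21, GRCm38), and their IDs are given as in the table. P2ry12 (ENSMUSG00000036353) and P2ry13 (ENSMUSG00000036362) are neighbours on chromosome 3. Gpr34 (ENSMUSG00000040229) lies at chrX:13632089-13640858 on the plus strand, within the span of Cask on the other strand, and Cx3cr1 (ENSMUSG00000052336) at chr9:119901616-120069879 on the minus strand, a span that 5 other genes of the table overlap. Csf1r (ENSMUSG00000024621) at chr18:61100598-61132149 on the plus strand overlaps Hmgxb3 on the other strand. No other gene of the table overlaps Siglech (ENSMUSG00000051504, chr7:55768178-55778925, plus strand), Trem2 (ENSMUSG00000023992, chr17:48346401-48354147, plus strand), Tmem119 (ENSMUSG00000054675, chr5:113793729-113800516, minus strand) or Sall1 (ENSMUSG00000031665, chr8:89027235-89044162, minus strand). Reads from overlapping genes cannot be told apart without knowing how strand was used.

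The targeted gene was measured first. Lcn2 stood at 40.2, 34.1, 38.3 and 37.2 RPKM in the LPS libraries labelled Lcn2-/-, against 71.5, 67.8, 66.7 and 82.7 RPKM in the WT LPS libraries. After saline it stood at 0.132, 0.204, 0.351 and 0.247 RPKM in libraries labelled Lcn2-/- and at 0.0650, 0.0741, 0.204 and 0.137 RPKM in WT libraries. Lcn2 RNA was therefore present after LPS under the Lcn2-/- label, at 52.02% of the WT level. The log2 difference between the labels after LPS was -0.94 ± 0.31 (SE, limma, adjusted p = 0.0505). A value per gene does not say which exons the reads came from, so it tests the label only in part, and the groups are called by their labels throughout. All but 1 library had 16372 to 16497 genes at 0.5 RPKM or more, and saline replicate 4 labelled Lcn2-/- had 17112. The title of that library alone carries a letter beside its number, a number that no other title has, and the series text speaks of 3 to 4 replicates for each combination. Whether it is a repeat of another library is not stated, and it is counted here as the fourth replicate. That library also had the lowest weight, 0.0914 against 0.74 to 1.85 in the others, when limma estimated a quality weight for each library. Depth per library is unknown, because the table holds no counts. The labels do not say whether each library came from a separate mouse, so p-values measure only the spread between these samples.

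After LPS the signature was lower under both genotype labels, by very different amounts from gene to gene. In libraries labelled Lcn2-/- Gpr34 stood at 5.97% and P2ry12 at 22.3% of the saline level, and Csf1r, the least changed, at 88.3%. In WT hemi-brains Gpr34 fell to 9.88% and P2ry12 to 23.8% of the saline level, Cx3cr1, Siglech, Sall1 and Trem2 to between 49.98% and 58.03%, P2ry13 to 70.3%, and Csf1r to 91.3%. Tmem119 did not pass the test in WT. A gene was called where the adjusted p of the limma test (Benjamini-Hochberg over all 17349 genes) was under 0.05. Log2 differences are given ± SE of the fit. By that rule all 9 genes fell and 0 rose in libraries labelled Lcn2-/-, where 27.7% of all tested genes fell and 20.7% rose, and 0 of the 9 were higher at an unadjusted p under 0.05. In WT 8 of the 9 fell and 0 rose, where 13.9% of all tested genes fell and 11.4% rose, and again 0 of the 9 were higher at an unadjusted p under 0.05. The median log2 difference over the 9 genes was -0.89 in libraries labelled Lcn2-/- and -0.82 in WT, against -0.028 and -0.025 over all tested genes. In libraries labelled Lcn2-/- 4 of the 9 were called with a decrease of at least 1 on the log2 scale, which 2.57% of all tested genes reached, and in WT 3 of the 9, which 1.01% reached. Because the 9 were chosen with earlier results of these data known, these counts and shares describe the set and do not test it. Without saline replicate 4 labelled Lcn2-/-, the same numbers of the 9 fell, 9 in libraries labelled Lcn2-/- and 8 in WT. In bulk tissue a smaller number of microglia and less RNA per microglial cell cannot be told apart.

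**Figure D1:**
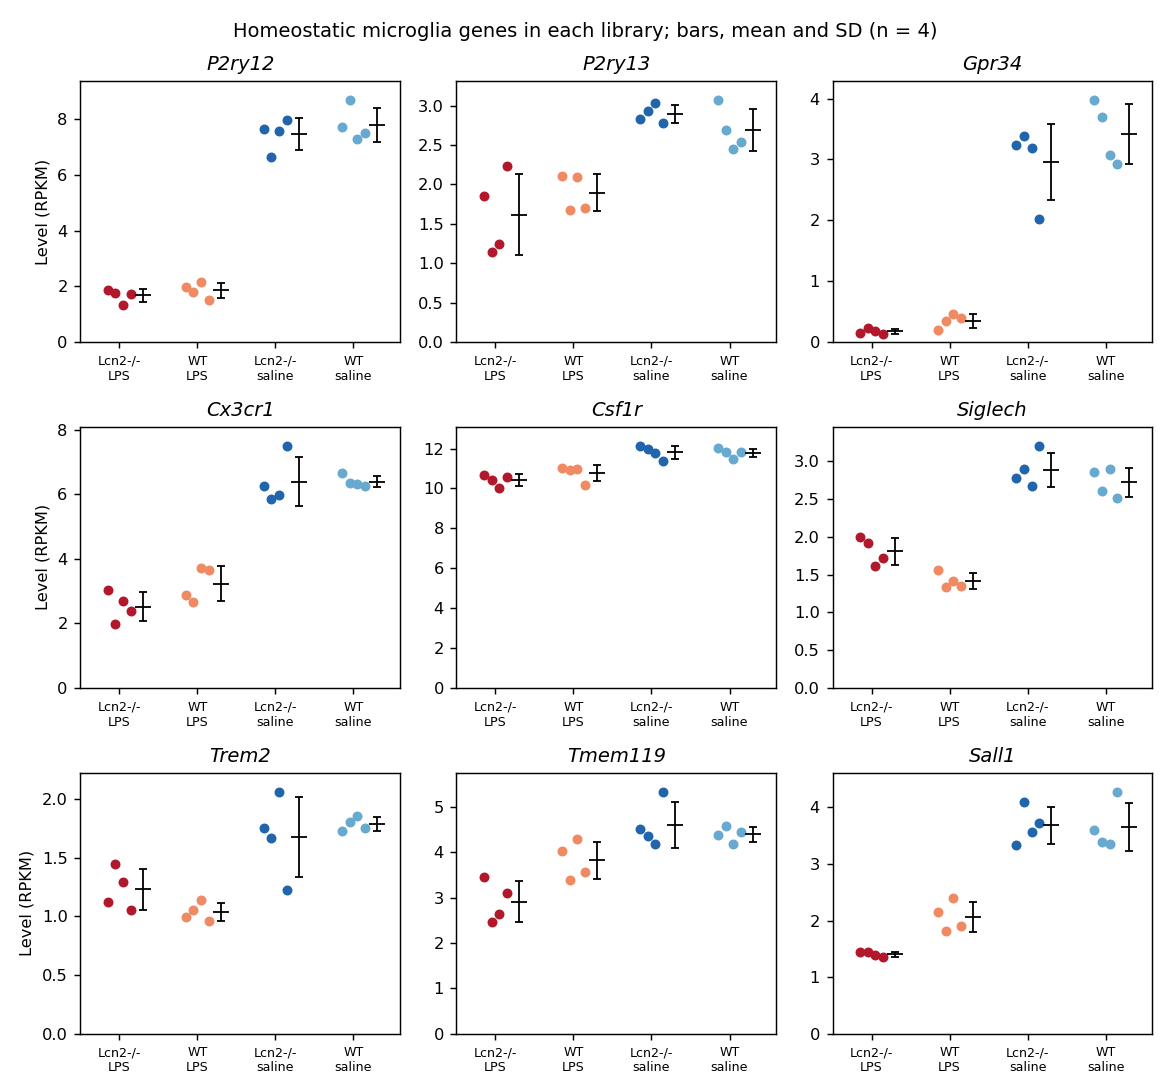
Level of each of the 9 genes in every library, in RPKM on a linear axis from 0, with the groups from left to right LPS labelled Lcn2-/-, LPS WT, saline labelled Lcn2-/- and saline WT; points are libraries and bars show the mean and SD (n = 4). For P2ry12 no LPS library exceeds 2.16 RPKM and no saline library is under 6.66 RPKM, while for Tmem119 the WT LPS and WT saline libraries overlap.

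Among the ADP receptors, P2ry12 fell far more than P2ry13. P2ry12 stood at 1.86, 1.78, 1.34 and 1.72 RPKM in the LPS libraries labelled Lcn2-/- and at 1.98, 1.79, 2.16 and 1.52 RPKM in the WT LPS libraries. It stood at 7.64, 6.66, 7.58 and 7.97 RPKM in the saline libraries labelled Lcn2-/- and at 7.72, 8.68, 7.28 and 7.51 RPKM in the WT saline libraries. LPS and saline libraries did not overlap in either genotype. The log2 difference was -2.16 ± 0.11 in libraries labelled Lcn2-/- (adjusted p = 3.29e-10) and -2.07 ± 0.11 in WT (adjusted p = 1.1e-09). By size of decrease P2ry12 ranked 49 among the 17349 tested genes in libraries labelled Lcn2-/- and 26 in WT.

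P2ry13 stood at 1.85, 1.14, 1.25 and 2.23 RPKM in the LPS libraries labelled Lcn2-/- and at 2.11, 1.68, 2.09 and 1.70 RPKM in the WT LPS libraries. Its saline values were 2.83, 2.93, 3.03 and 2.78 RPKM in libraries labelled Lcn2-/- and 3.07, 2.70, 2.45 and 2.54 RPKM in WT. All LPS libraries were below all saline libraries in both genotypes, and the LPS libraries labelled Lcn2-/- split into a lower and a higher pair. In log2 terms the difference was -0.89 ± 0.17 in libraries labelled Lcn2-/- (adjusted p = 4.39e-04) and -0.51 ± 0.17 in WT (adjusted p = 0.0347). The WT call was lost without WT LPS replicate 2 (-0.45, adjusted p = 0.0977) or replicate 4 (-0.46, adjusted p = 0.0967). It was also lost without WT saline replicate 1 (-0.44, adjusted p = 0.0939), replicate 2 (-0.51, adjusted p = 0.0688) or replicate 4 (-0.53, adjusted p = 0.0547). P2ry12 was between 0.769 and 1.56 times P2ry13 in the LPS libraries labelled Lcn2-/- and between 0.895 and 1.07 times in the WT LPS libraries, per RPKM. The same ratio lay between 2.27 and 2.87 in the saline libraries labelled Lcn2-/- and between 2.52 and 3.22 in the WT saline libraries. After LPS the ratio lay on both sides of 1 in each genotype, while P2ry12 led in every saline library. The ratio was chosen after the values were seen.

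P2ry12 (chr3:59216272-59262871, minus strand, GRCm38) and P2ry13 (chr3:59207892-59210882, minus strand) lie next to each other inside Med12l (chr3:59005825-59318682, plus strand), which encodes a Mediator subunit. The sources used here do not state whether counting used strand, so reads of Med12l could add to both. Med12l itself stood at 4.23 RPKM in LPS libraries labelled Lcn2-/- and 4.41 RPKM in WT LPS libraries, against 4.16 RPKM and 4.25 RPKM after saline (geometric means), and did not pass the test in either genotype (log2 difference 0.026 ± 0.045 in libraries labelled Lcn2-/-, adjusted p = 0.661, and 0.055 ± 0.045 in WT, adjusted p = 0.427). Other P2Y receptor genes, chosen after the values of the 9 were seen, gave calls in both directions. P2ry14, a UDP-glucose receptor gene in the same cluster, fell by 0.64 in libraries labelled Lcn2-/- (adjusted p = 4.03e-04) and had a log2 difference of -0.19 ± 0.12 in WT (adjusted p = 0.276). P2ry1, another ADP receptor gene, fell by 0.38 in libraries labelled Lcn2-/- (adjusted p = 0.00761) and had a log2 difference of -0.25 ± 0.11 in WT (adjusted p = 0.0998). P2ry6, the UDP receptor gene linked to phagocytosis, rose by 1.04 ± 0.20 in libraries labelled Lcn2-/- (adjusted p = 5.01e-04) and by 0.62 ± 0.20 in WT (adjusted p = 0.0306).

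The bases before the start sites of P2ry12 and P2ry13 are shown because these neighbouring receptor genes fell by unequal amounts. They are from RefSeq on GRCm38.p6, 250 bases each, at chr3:59262986-59263235 and chr3:59210883-59211132, both on the minus strand and written 5′ to 3′; capitals mark the core motif of the myeloid factor PU.1, GGAAGT or its reverse complement.
P2ry12: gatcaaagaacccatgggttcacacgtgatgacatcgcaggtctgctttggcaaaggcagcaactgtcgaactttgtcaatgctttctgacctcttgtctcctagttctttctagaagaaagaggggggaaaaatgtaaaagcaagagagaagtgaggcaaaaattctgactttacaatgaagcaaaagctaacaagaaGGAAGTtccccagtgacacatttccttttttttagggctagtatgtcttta
P2ry13: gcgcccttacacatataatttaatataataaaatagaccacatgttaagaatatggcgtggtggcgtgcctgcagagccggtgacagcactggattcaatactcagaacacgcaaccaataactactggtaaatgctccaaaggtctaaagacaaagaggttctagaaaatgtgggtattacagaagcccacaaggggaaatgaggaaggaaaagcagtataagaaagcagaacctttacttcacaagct
P2ry12 has 1 match of GGAAGT, at position -51 from its RefSeq start site, and P2ry13 has 0. That start site of P2ry12 lies outside the GENCODE span of the gene, which ends at chr3:59262871. The bases that follow the P2ry12 window were not found in a GENCODE transcript of the gene, while those of P2ry13 were. The P2ry12 match overlaps a match of a loose NF-kB motif (GGG and CC with 5 bases of any kind between them), which also begins at position -51. Searched on both strands, GGAAGT occurred in 19.7% of 32851 promoter windows of that length and the loose NF-kB motif in 45.8%. P2ry13 has 1 match of the RUNX motif TGTGGT, found in 14% of windows, and 0 of the others searched. A match describes the letters of the window and is no measurement of binding.

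Gpr34, the lysophosphatidylserine receptor gene on chromosome X, fell most of the 9. It stood at 0.150, 0.237, 0.185 and 0.137 RPKM in the LPS libraries labelled Lcn2-/- and at 0.196, 0.353, 0.456 and 0.399 RPKM in the WT LPS libraries. After saline it stood at 3.25, 3.38, 3.19 and 2.03 RPKM in libraries labelled Lcn2-/- and 3.97, 3.69, 3.07 and 2.93 RPKM in WT. Every LPS library was under 0.5 RPKM and every saline library above 2 RPKM. The log2 difference was -4.07 ± 0.25 in libraries labelled Lcn2-/- (adjusted p = 2.5e-09) and -3.34 ± 0.25 in WT (adjusted p = 4.28e-08), ranks 5 and 3 among the decreases of the 17349 genes. Because the LPS values are so low, the size depends on the scale: with 0.5 RPKM added before taking logs the differences were -2.34 in libraries labelled Lcn2-/- and -2.20 in WT. Gpr34 passed the filter of 0.5 RPKM through its saline libraries alone. The low end of the scale also lay lower in LPS libraries (25th percentile of log2 RPKM -5.78 to -4.58, against -4.12 to -2.73 after saline). The part of this in the size and rank of the decrease was not tested. Pla1a, which encodes a phospholipase that makes lysophosphatidylserine, moved the other way, with 3.32 RPKM in LPS libraries labelled Lcn2-/- and 3.02 RPKM in WT LPS libraries against 0.790 RPKM and 0.667 RPKM after saline (geometric means). Its log2 difference was 2.07 ± 0.13 in libraries labelled Lcn2-/- (adjusted p = 5.01e-09) and 2.18 ± 0.13 in WT (adjusted p = 4.83e-09). Nt5e, which encodes the enzyme that makes adenosine from AMP, also rose, by 1.59 ± 0.070 in libraries labelled Lcn2-/- (adjusted p = 6.11e-11) and by 1.28 ± 0.070 in WT (adjusted p = 1.43e-09). Entpd1, whose product degrades ATP and ADP, had a log2 difference of -0.037 ± 0.093 in libraries labelled Lcn2-/- (adjusted p = 0.768) and fell by 0.34 in WT (adjusted p = 0.0129).

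The fractalkine and growth factor receptors also fell by unequal amounts. Cx3cr1 stood at 3.04, 1.98, 2.69 and 2.37 RPKM in the LPS libraries labelled Lcn2-/- and at 2.87, 2.65, 3.72 and 3.67 RPKM in the WT LPS libraries. Its saline values were 6.26, 5.87, 5.97 and 7.50 RPKM in libraries labelled Lcn2-/- and 6.65, 6.35, 6.33 and 6.25 RPKM in WT. No LPS library reached the lowest saline library of its genotype. This made a log2 difference of -1.35 ± 0.13 in libraries labelled Lcn2-/- (adjusted p = 4.86e-07) and -1.001 ± 0.13 in WT (adjusted p = 2.18e-05). The ligand gene Cx3cl1 fell by 0.31 in libraries labelled Lcn2-/- (adjusted p = 8.59e-05), and its log2 difference in WT was -0.13 ± 0.049 (adjusted p = 0.0555).

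Csf1r was the highest of the 9 in all 16 libraries and fell least of the 8 called in WT. It stood at 10.7, 10.4, 10.02 and 10.6 RPKM in the LPS libraries labelled Lcn2-/- and at 11.03, 10.9, 10.98 and 10.2 RPKM in the WT LPS libraries. After saline the values were 12.1, 11.98, 11.8 and 11.4 RPKM in libraries labelled Lcn2-/- and 12.01, 11.8, 11.5 and 11.8 RPKM in WT. The groups did not overlap, although the gap was below 1 RPKM in each genotype. LPS minus saline was, on the log2 scale, -0.18 ± 0.035 in libraries labelled Lcn2-/- (adjusted p = 5.82e-04) and -0.13 ± 0.035 in WT (adjusted p = 0.011). Its ligand genes parted: Csf1 rose by 0.90 ± 0.064 in libraries labelled Lcn2-/- (adjusted p = 1.48e-08) and by 0.57 ± 0.064 in WT (adjusted p = 4.58e-06). Il34 fell by 0.29 in libraries labelled Lcn2-/- (adjusted p = 8.11e-05) and had a log2 difference of -0.067 ± 0.046 in WT (adjusted p = 0.321). Over the 14 genes of ligands, adaptors and processing enzymes of the receptors, 4 rose and 4 fell in libraries labelled Lcn2-/- (median log2 difference -0.011), and 3 rose and 2 fell in WT (median -0.022).

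**Figure D2:**
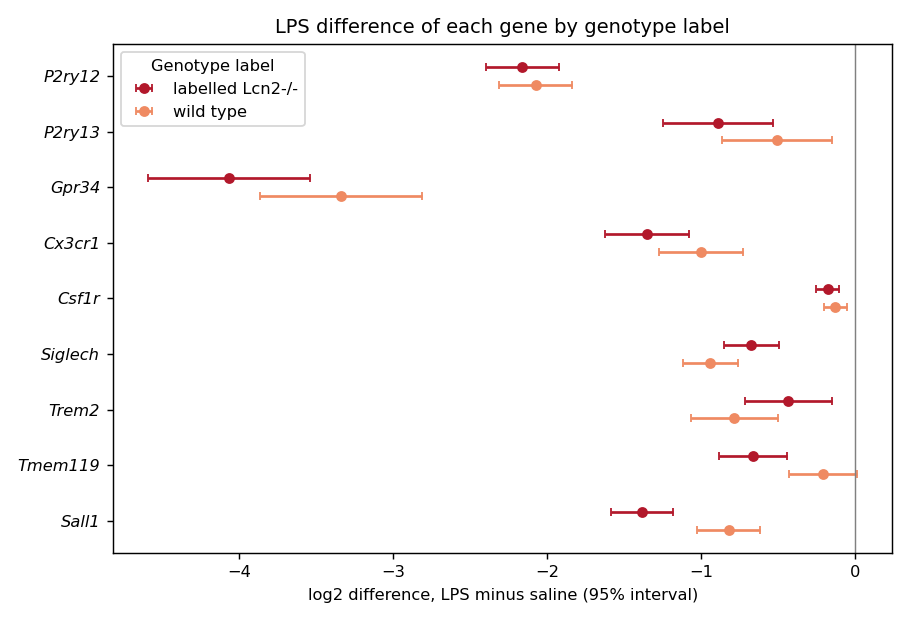
LPS minus saline difference of each of the 9 genes on the log2 scale, with the 95% interval from limma, for libraries labelled Lcn2-/- (upper point) and WT (lower point). Gpr34 lies farthest to the left, at -4.07 in libraries labelled Lcn2-/- and -3.34 in WT, and Csf1r lies closest to 0, at -0.18 and -0.13.

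Of the receptors that signal through DAP12, Siglech stood at 1.99, 1.92, 1.61 and 1.72 RPKM in the LPS libraries labelled Lcn2-/- and at 1.57, 1.33, 1.41 and 1.35 RPKM in the WT LPS libraries. Its saline values were 2.78, 2.89, 2.67 and 3.20 RPKM in libraries labelled Lcn2-/- and 2.86, 2.61, 2.89 and 2.51 RPKM in WT. LPS and saline libraries did not overlap in either genotype, and the LPS libraries labelled Lcn2-/- lay between the WT LPS and the saline libraries. Its log2 difference came to -0.67 ± 0.084 in libraries labelled Lcn2-/- (adjusted p = 9.29e-06) and -0.94 ± 0.084 in WT (adjusted p = 3.83e-07).

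Trem2 stood at 1.12, 1.45, 1.30 and 1.06 RPKM in the LPS libraries labelled Lcn2-/- and at 0.997, 1.05, 1.14 and 0.964 RPKM in the WT LPS libraries. After saline Trem2 stood at 1.75, 1.67, 2.06 and 1.23 RPKM in libraries labelled Lcn2-/- and 1.73, 1.81, 1.86 and 1.76 RPKM in WT. Saline replicate 4 labelled Lcn2-/- lay among the LPS libraries of its genotype, while the WT groups did not overlap. On the log2 scale Trem2 differed by -0.43 ± 0.13 in libraries labelled Lcn2-/- (adjusted p = 0.0138) and -0.79 ± 0.13 in WT (adjusted p = 3.36e-04). The call in libraries labelled Lcn2-/- was lost when the spread was estimated from the compared groups alone (adjusted p = 0.069), and without saline replicate 4 the difference was -0.58 (adjusted p = 3.65e-04). Tyrobp, the adaptor gene of both receptors, stood at 13.97 RPKM in LPS libraries labelled Lcn2-/- and 13.99 RPKM in WT LPS libraries, against 15.5 RPKM in saline libraries labelled Lcn2-/- and 13.9 RPKM in WT saline libraries (geometric means). Its log2 difference was -0.15 ± 0.16 in libraries labelled Lcn2-/- (adjusted p = 0.465) and 0.012 ± 0.16 in WT (adjusted p = 0.972). Saline replicate 4 labelled Lcn2-/- raised the Tyrobp mean of its group. It stood at 25.7 RPKM, against 11.96, 13.5 and 13.97 RPKM in replicates 1, 2 and 3.

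Tmem119, the membrane marker, stood at 3.46, 2.46, 2.64 and 3.10 RPKM in the LPS libraries labelled Lcn2-/- and at 4.04, 3.39, 4.29 and 3.58 RPKM in the WT LPS libraries. Its saline values were 4.52, 4.37, 4.18 and 5.34 RPKM in libraries labelled Lcn2-/- and 4.39, 4.59, 4.19 and 4.45 RPKM in WT. The groups labelled Lcn2-/- did not overlap, and the WT groups did. It fell by 0.66 on the log2 scale in libraries labelled Lcn2-/- (adjusted p = 8.95e-05), and the difference in WT was -0.21 ± 0.10 (95% interval -0.43 to 0.011, adjusted p = 0.163). With a quality weight for each library the WT difference of -0.25 passed (adjusted p = 0.0294).

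Sall1, the transcription factor gene, stood at 1.45, 1.44, 1.38 and 1.36 RPKM in the LPS libraries labelled Lcn2-/- and at 2.16, 1.82, 2.39 and 1.90 RPKM in the WT LPS libraries. After saline Sall1 stood at 3.33, 4.10, 3.57 and 3.73 RPKM in libraries labelled Lcn2-/- and 3.59, 3.39, 3.35 and 4.27 RPKM in WT. The 4 groups formed 3 separate levels: LPS labelled Lcn2-/- lowest, LPS WT in the middle, and both saline groups together at the top. The log2 difference was -1.38 ± 0.095 in libraries labelled Lcn2-/- (adjusted p = 1.07e-08) and -0.82 ± 0.095 in WT (adjusted p = 6.96e-06). Every LPS library lay below every saline library for 8 of the 9 genes in libraries labelled Lcn2-/-, all but Trem2, where 23.8% of all tested genes did. The same held for 8 of the 9 in WT, all but Tmem119, where 18.6% of all tested genes did.

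The unequal decreases changed the order of the genes by level, which RPKM allows to be read per length. In the LPS libraries labelled Lcn2-/- Csf1r led at 10.4 RPKM (geometric mean), followed by Tmem119 at 2.89 and Cx3cr1 at 2.49 RPKM. From Tmem119 down to Trem2 at 1.22 RPKM each gene overlapped its neighbour in that order, and Gpr34 came last and apart at 0.173 RPKM. In the WT LPS libraries the order was Csf1r, Tmem119, Cx3cr1, Sall1, P2ry13, P2ry12, Siglech, Trem2 and Gpr34, with P2ry12 in the sixth place. There Tmem119 overlapped Cx3cr1, and Sall1, P2ry13, P2ry12 and Siglech overlapped in turn, while the other neighbours were separate. In the saline libraries labelled Lcn2-/- the order was Csf1r, P2ry12, Cx3cr1, Tmem119, Sall1, Gpr34, P2ry13, Siglech and Trem2. P2ry12 overlapped Cx3cr1 there, and Sall1, Gpr34, P2ry13 and Siglech overlapped in turn. In the WT saline libraries Csf1r at 11.8 RPKM, P2ry12 at 7.78 and Cx3cr1 at 6.39 RPKM were separate from one another, and Trem2 was again last of the saline order at 1.79 RPKM. The summed level of the 9 genes lay between 22.4 and 25.6 RPKM in the LPS libraries labelled Lcn2-/- and between 24.98 and 28.7 RPKM in the WT LPS libraries. It lay between 43.9 and 45.1 RPKM in the saline libraries labelled Lcn2-/- and between 42.9 and 46.0 RPKM in the WT saline libraries.

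Genes of the myeloid lineage in general did not follow the signature. Of 17 tested general myeloid genes, such as those for complement C1q, Fc receptors and CD68, 11 rose and 3 fell in libraries labelled Lcn2-/- (median log2 difference 0.28), and 11 rose and 3 fell in WT (median 0.35). Fcgr3, an Fc receptor gene, rose by 1.63 ± 0.11 in libraries labelled Lcn2-/- (adjusted p = 5.15e-09) and by 1.56 ± 0.11 in WT (adjusted p = 1.47e-08). Aif1, which encodes the microglia and macrophage marker Iba1, fell by 0.48 in libraries labelled Lcn2-/- (adjusted p = 0.00275) and fell by 0.81 in WT (adjusted p = 5.21e-05). C1qc, a complement gene, did not pass in either genotype (0.089 ± 0.056 in libraries labelled Lcn2-/-, adjusted p = 0.203, and 0.066 ± 0.056 in WT, adjusted p = 0.445). The mean over the 17 genes was 2.54 log2 RPKM in LPS libraries labelled Lcn2-/- and 2.41 in WT LPS libraries, against 2.07 in saline libraries labelled Lcn2-/- and 2.005 in WT saline libraries.

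Set against that mean within each library, all 9 signature genes were lower in every LPS library than in every saline library of the same genotype, Tmem119 and Trem2 included. In libraries labelled Lcn2-/- the differences of these log2 ratios ran from -0.65 for Csf1r to -4.54 for Gpr34, with -1.13 for Tmem119, -0.90 for Trem2 and -2.63 for P2ry12. In WT they ran from -0.53 for Csf1r to -3.74 for Gpr34, with -0.61 for Tmem119, -1.19 for Trem2 and -2.48 for P2ry12. Set against the median of the general myeloid genes instead, Trem2 and Csf1r overlapped between LPS and saline libraries labelled Lcn2-/-. Trem2 then ran from -2.03 to -1.57 after LPS and from -1.89 to -0.70 after saline. Csf1r ran from 1.20 to 1.38 after LPS and from 1.32 to 1.91 after saline. These ratios show unequal change within libraries and carry no test. The general myeloid mean was itself higher in every LPS library than in every saline library of the same genotype. A ratio can therefore fall, even without overlap, where the gene itself did not change. How many of all tested genes would be lower in every LPS library on the same ratio was not counted.

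**Figure D3:**
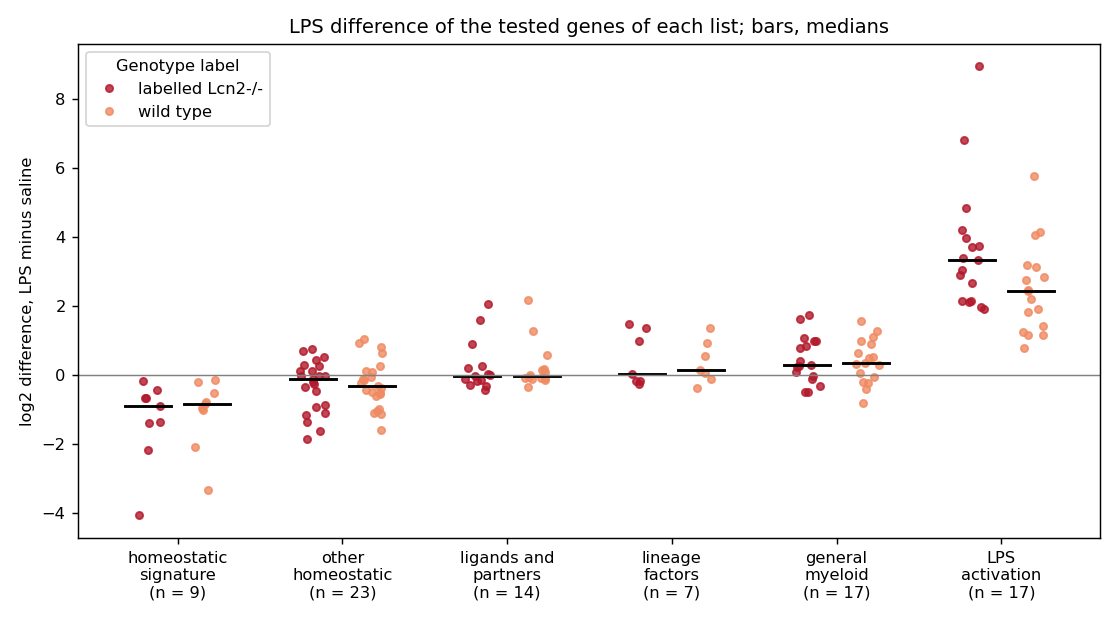
LPS minus saline difference on the log2 scale of the tested genes of 6 lists, with libraries labelled Lcn2-/- left and WT right in each pair; points are genes and bars are medians. The 9 signature genes all lie below 0, the 17 LPS activation genes all lie above 0, and the 17 general myeloid genes lie on both sides with medians of 0.28 in libraries labelled Lcn2-/- and 0.35 in WT. The lists were chosen with earlier results of these data known.

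Other genes listed as markers of resting microglia were mixed. Of 23 tested, 11 fell and 6 rose in libraries labelled Lcn2-/- (median -0.12), and 12 fell and 5 rose in WT (median -0.31). Slc2a5, the fructose transporter gene, fell by 1.86 in libraries labelled Lcn2-/- (adjusted p = 3.91e-07) and fell by 1.598 in WT (adjusted p = 3.38e-06), the largest decrease of the list in WT. Its levels were low, near or below the 0.5 RPKM of the filter. They were 0.185 RPKM in LPS libraries labelled Lcn2-/- and 0.222 RPKM in WT LPS libraries, against 0.671 RPKM in both saline groups (geometric means). Ecscr, which endothelial cells also express, rose by 0.71 ± 0.12 in libraries labelled Lcn2-/- (adjusted p = 2.50e-04) and by 1.05 ± 0.12 in WT (adjusted p = 9.16e-06). Cst3, a secreted protease inhibitor gene that other brain cells also express, did not pass, with log2 differences of -0.018 ± 0.054 in libraries labelled Lcn2-/- (adjusted p = 0.803) and -0.11 ± 0.054 in WT (adjusted p = 0.146). Genes that microglia raise on LPS activation rose in 17 of 17 cases in libraries labelled Lcn2-/- (median 3.33) and in 15 of 17 in WT (median 2.43), and 0 fell. Cxcl10, a chemokine gene, stood at 101 RPKM in LPS libraries labelled Lcn2-/- and 13.1 RPKM in WT LPS libraries, against 0.203 RPKM and 0.240 RPKM after saline (geometric means). A gene so low after saline passes the filter of 0.5 RPKM through its LPS libraries. The list was also chosen with earlier results of these data known, so its counts describe it and test nothing. Il1a, the cytokine gene, rose by 2.17 ± 0.29 in libraries labelled Lcn2-/- (adjusted p = 1.93e-05) and did not pass in WT (0.80 ± 0.29, adjusted p = 0.0531). Of 15 tested genes of the disease-associated microglia state, a state known from models of neurodegeneration, 10 rose and 0 fell in libraries labelled Lcn2-/- (median 0.19) and 7 rose and 0 fell in WT (median 0.13). Cst7, a cystatin gene, which rose most of them in WT, rose by 1.20 ± 0.46 in libraries labelled Lcn2-/- (adjusted p = 0.0418) and by 2.07 ± 0.46 in WT (adjusted p = 0.00325). Apoe, at 386 RPKM in either LPS group, did not pass, with log2 differences of 0.015 ± 0.056 in libraries labelled Lcn2-/- (adjusted p = 0.839) and -0.057 ± 0.056 in WT (adjusted p = 0.523).

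Transcription factor genes of the lineage gave calls in both directions. Spi1, which encodes PU.1, rose by 0.98 ± 0.16 in libraries labelled Lcn2-/- (adjusted p = 1.14e-04) and by 0.95 ± 0.16 in WT (adjusted p = 2.75e-04). Cebpa rose by 1.36 ± 0.075 in libraries labelled Lcn2-/- (adjusted p = 7.54e-10) and by 1.37 ± 0.075 in WT (adjusted p = 1.27e-09). Irf8 rose by 1.48 ± 0.14 in libraries labelled Lcn2-/- (adjusted p = 4.88e-07) and by 0.57 ± 0.14 in WT (adjusted p = 0.00668). Maf fell by 0.27 in libraries labelled Lcn2-/- (adjusted p = 0.00955) and fell by 0.36 in WT (adjusted p = 0.00227). Mef2c fell by 0.16 in libraries labelled Lcn2-/- (adjusted p = 0.041) and had a log2 difference of -0.12 ± 0.061 in WT (adjusted p = 0.183), and Mef2a did not pass under either label. Of the 7 tested, 3 rose and 2 fell in libraries labelled Lcn2-/- (median 0.026), and 3 rose and 1 fell in WT (median 0.15).

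TGF-beta signalling, which microglia need to keep their resting profile, gave calls in both directions. Of 12 genes, 3 rose and 5 fell in libraries labelled Lcn2-/- (median 0.0026), and 4 rose and 5 fell in WT (median 0.036). Nrros, whose product presents latent TGF-beta on microglia, rose by 1.54 ± 0.067 in libraries labelled Lcn2-/- (adjusted p = 5.24e-11) and by 1.39 ± 0.067 in WT (adjusted p = 3.11e-10). Tgfbr1, a receptor gene, fell by 0.56 in libraries labelled Lcn2-/- (adjusted p = 4.01e-05) and fell by 0.31 in WT (adjusted p = 0.00963), whereas Tgfbr2, its partner receptor, rose by 0.60 ± 0.070 in libraries labelled Lcn2-/- (adjusted p = 4.91e-06) and by 0.77 ± 0.070 in WT (adjusted p = 5.43e-07). Tgfb1, the ligand gene, had a log2 difference of -0.0074 ± 0.15 in libraries labelled Lcn2-/- (adjusted p = 0.972) and fell by 0.57 in WT (adjusted p = 0.0094).

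Markers of other cell types that a hemi-brain can hold were read beside these results. The 11 border-associated macrophage genes summed to between 4.92 and 5.69 RPKM in LPS libraries labelled Lcn2-/- and between 5.03 and 5.87 RPKM in WT LPS libraries, against 5.12 to 6.78 RPKM and 5.55 to 5.997 RPKM after saline. Of 5 tested, 0 rose and 2 fell in libraries labelled Lcn2-/-, and 1 rose and 0 fell in WT; Mrc1 had a log2 difference of 0.026 ± 0.12 in libraries labelled Lcn2-/- (adjusted p = 0.875) and rose by 0.40 ± 0.12 in WT (adjusted p = 0.0213). The 10 monocyte genes summed to between 12.9 and 13.6 RPKM in LPS libraries labelled Lcn2-/- and between 12.1 and 17.7 RPKM in WT LPS libraries, against 23.5 to 30.9 RPKM and 23.8 to 27.2 RPKM after saline. Most of that sum was Nr4a1, which neurons also express, at 7.25 RPKM and 8.14 RPKM in the LPS groups, against 22.03 RPKM and 20.5 RPKM after saline. Of 5 tested, 1 rose and 1 fell in libraries labelled Lcn2-/-, and 2 rose and 1 fell in WT. Plac8 rose by 3.81 ± 0.31 in libraries labelled Lcn2-/- (adjusted p = 8.76e-08) and by 2.18 ± 0.31 in WT (adjusted p = 6.37e-05), at 0.954 RPKM and 0.467 RPKM in the LPS groups against 0.0682 RPKM and 0.103 RPKM after saline. Ly6c2, whose reads can be shared with its near copies, had a log2 difference of 0.29 ± 0.20 in libraries labelled Lcn2-/- (adjusted p = 0.246) and rose by 1.05 ± 0.20 in WT (adjusted p = 9.77e-04). Nr4a1 fell by 1.604 in libraries labelled Lcn2-/- (adjusted p = 1.29e-07) and fell by 1.33 in WT (adjusted p = 1.62e-06). Ccr2, a defining monocyte gene, was near 0, at 0.0128 RPKM and 0.0194 RPKM in the LPS groups against 0.0843 RPKM and 0.0977 RPKM after saline. The 12 neutrophil genes summed to between 12.1 and 29.4 RPKM in LPS libraries labelled Lcn2-/- and between 11.9 and 18.3 RPKM in WT LPS libraries, against 6.41 to 8.71 RPKM and 4.27 to 10.5 RPKM after saline. Of 6 tested, 3 rose and 1 fell in libraries labelled Lcn2-/- and likewise in WT. S100a8 rose by 1.98 ± 0.46 in libraries labelled Lcn2-/- (adjusted p = 0.00239) and by 2.03 ± 0.46 in WT (adjusted p = 0.0037), Csf3r fell by 0.98 in libraries labelled Lcn2-/- (adjusted p = 5.18e-05) and fell by 0.57 in WT (adjusted p = 0.00749), and Ly6g was near 0 at 0.0324 RPKM and 0.0442 RPKM in the LPS groups. Of 10 neuronal markers 2 rose and 2 fell in libraries labelled Lcn2-/- and 0 were called in WT; of 10 astrocyte markers 4 rose and 0 fell under each label, and of 10 oligodendrocyte markers 1 rose and 4 fell under each. The astrocyte gene Gjb6 rose by 0.57 ± 0.062 in libraries labelled Lcn2-/- (adjusted p = 2.23e-06) and by 0.72 ± 0.062 in WT (adjusted p = 2.68e-07). The oligodendrocyte gene Opalin fell by 1.07 in libraries labelled Lcn2-/- (adjusted p = 2.13e-07) and fell by 1.502 in WT (adjusted p = 6.63e-09), and Mal had a log2 difference of -0.088 ± 0.051 in libraries labelled Lcn2-/- (adjusted p = 0.167) and rose by 0.25 ± 0.051 in WT (adjusted p = 0.00188). Of 10 endothelial markers 1 rose and 6 fell in libraries labelled Lcn2-/-, and 3 rose and 5 fell in WT. Tek fell by 2.87 in libraries labelled Lcn2-/- (adjusted p = 1.4e-10) and fell by 2.36 in WT (adjusted p = 2.73e-09), and Cdh5 rose by 1.995 ± 0.090 in libraries labelled Lcn2-/- (adjusted p = 6.88e-11) and by 1.21 ± 0.090 in WT (adjusted p = 4.28e-08). Of 4 tested blood genes, 0 were called in libraries labelled Lcn2-/- and 1 fell in WT, Hba-a1, whose reads can be shared with its near copy. The part of these cells in the values of the 9 genes was not tested.

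Between the genotype labels after LPS, single genes of the signature were called in both directions. Sall1, Gpr34 and Tmem119 were lower in LPS libraries labelled Lcn2-/- than in WT LPS libraries, and Siglech was higher. That makes 3 of the 9 lower, where 8.74% of all tested genes were, and 1 higher, where 7.04% were. The median over the 9 was -0.28 on the log2 scale, against -0.0098 over all tested genes. Sall1 averaged 1.41 ± 0.0434 RPKM in LPS libraries labelled Lcn2-/- and 2.07 ± 0.263 RPKM in WT LPS libraries (SD, n = 4 each), with every library of the first below every library of the second. That was a log2 difference of -0.54 ± 0.095 (adjusted p = 0.0017). Siglech averaged 1.81 ± 0.178 RPKM in LPS libraries labelled Lcn2-/- and 1.42 ± 0.107 RPKM in WT LPS libraries, again without overlap, with a log2 difference of 0.35 ± 0.084 (adjusted p = 0.0115). Of all tested genes, 14.7% had all LPS libraries labelled Lcn2-/- below all WT LPS libraries and 13.3% had them above. With 1 of the 9 in each direction, the signature was near these shares.

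Gpr34 averaged 0.177 ± 0.0447 RPKM in LPS libraries labelled Lcn2-/- and 0.351 ± 0.112 RPKM in WT LPS libraries, with WT replicate 1 inside the range of the other group. Its log2 difference was -0.95 ± 0.25 (adjusted p = 0.0177). The call was lost with 0.5 RPKM added before taking logs (-0.32, adjusted p = 0.111), with the compared groups alone (adjusted p = 0.0574) and without WT LPS replicate 3 (-0.80, adjusted p = 0.0608). Tmem119 averaged 2.92 ± 0.450 RPKM in LPS libraries labelled Lcn2-/- and 3.83 ± 0.414 RPKM in WT LPS libraries, and 1 library of each group overlapped the other. Its log2 difference of -0.40 ± 0.10 (adjusted p = 0.0182) lost the call without LPS replicate 2 (-0.32, adjusted p = 0.0613) or 3 (-0.36, adjusted p = 0.0644) labelled Lcn2-/-. It also lost it without WT LPS replicate 1 (-0.37, adjusted p = 0.0549) or 3 (-0.34, adjusted p = 0.0621).

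The other 5 genes did not pass. Cx3cr1 had a log2 difference of -0.36 ± 0.13 (95% interval -0.63 to -0.086, adjusted p = 0.0699), an interval for 1 gene that is not adjusted for the number tested. It passed with a quality weight for each library (-0.35, adjusted p = 0.0294), without saline replicate 4 labelled Lcn2-/- (-0.36, adjusted p = 0.034), without LPS replicate 1 labelled Lcn2-/- (-0.45, adjusted p = 0.0297) and without WT LPS replicate 2 (-0.45, adjusted p = 0.0395). P2ry13 had -0.28 ± 0.17 (95% interval -0.63 to 0.080, adjusted p = 0.281) and passed without LPS replicate 4 labelled Lcn2-/- (-0.45, adjusted p = 0.0499). P2ry12 had -0.15 ± 0.11 (95% interval -0.39 to 0.085, adjusted p = 0.377), Csf1r -0.047 ± 0.035 (95% interval -0.12 to 0.027, adjusted p = 0.388) and Trem2 0.24 ± 0.13 (95% interval -0.047 to 0.52, adjusted p = 0.245).

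**Figure D4:**
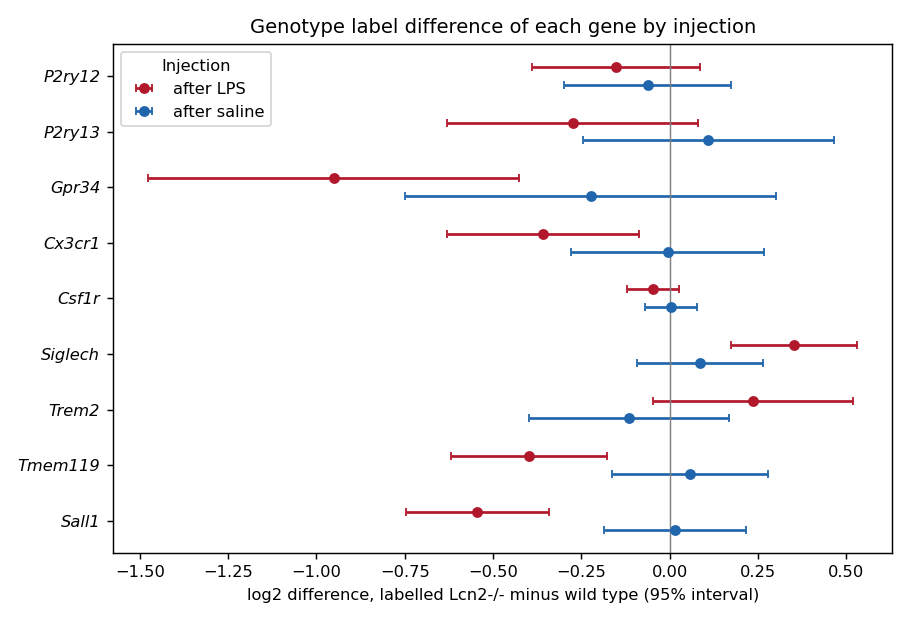
Difference between libraries labelled Lcn2-/- and WT for each of the 9 genes on the log2 scale, with the 95% interval from limma, after LPS (upper point) and after saline (lower point). The intervals are not adjusted for the number of genes. After LPS those of Gpr34, Tmem119, Sall1 and Cx3cr1 lie below 0 and that of Siglech above 0, and after saline all 9 include 0.

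Sall1 and Siglech moved apart within single libraries. Siglech was between 1.16 and 1.37 times Sall1 in the LPS libraries labelled Lcn2-/-, per RPKM, and between 0.591 and 0.733 times in the WT LPS libraries. After saline the ratio lay between 0.705 and 0.857 in libraries labelled Lcn2-/- and between 0.588 and 0.863 in WT. This pair was chosen after the values were seen. Sall1 was lower and Siglech higher without overlap, so the separation of the ratio after LPS follows from those values and is no further result. The bases before the RefSeq start sites of the pair are shown because these signature genes differed in opposite directions between the genotype labels after LPS. Whether the bases bear on that difference was not tested. They are at chr8:89044163-89044412 on the minus strand for the first of 3 start sites of Sall1, and at chr7:55767934-55768177 on the plus strand for Siglech, on GRCm38.p6, with the same capitals as above.
Sall1: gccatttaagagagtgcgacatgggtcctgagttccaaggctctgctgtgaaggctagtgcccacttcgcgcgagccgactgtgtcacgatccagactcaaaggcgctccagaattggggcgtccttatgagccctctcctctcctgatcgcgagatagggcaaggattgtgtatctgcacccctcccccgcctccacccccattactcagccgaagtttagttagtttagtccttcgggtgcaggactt
Siglech: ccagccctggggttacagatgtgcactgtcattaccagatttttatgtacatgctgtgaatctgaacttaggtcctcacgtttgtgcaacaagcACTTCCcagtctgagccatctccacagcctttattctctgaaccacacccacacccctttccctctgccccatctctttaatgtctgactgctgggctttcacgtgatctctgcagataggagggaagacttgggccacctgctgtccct
For Siglech the last 6 bases before the RefSeq start site, which lie within the GENCODE span of the gene, are not printed, while positions are counted from that start site in the full window of 250 bases. Siglech has 1 match of GGAAGT, on the reverse strand at position -156, and the first start site of Sall1 has 0, while the third has 1 at position -180. The SMAD half-site CAGAC, found in 42.2% of all windows, had 2 matches before Siglech and 1 before the first Sall1 start site. None of the 8 windows of the 6 signature genes in the RefSeq table held the longer PU.1 motif GAGGAAGT (2.44% of all windows), the SMAD palindrome GTCTAGAC (0.167%) or the C/EBP motif TTGNNNCAA (5.02%). The same held for the composite ETS-IRF motif (GGAA and GAAA with 2 bases between them, 2.3%) and the interferon response motif (GAAA repeated after 2 bases, 2.98%). The 3 signature genes with no window in that table were Gpr34, Tmem119 and Csf1r.

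Genes of the other lists differed between the labels after LPS as well, in bulk values that do not say which cells they came from. Of the 23 other resting microglia genes, 3 were lower in LPS libraries labelled Lcn2-/- and 2 higher (median -0.038); they are named after their values were seen. Slco2b1, an organic anion transporter gene, had a log2 difference of -0.68 ± 0.096 (adjusted p = 3.36e-04), Hpgds, the prostaglandin D synthase gene, -0.44 ± 0.12 (adjusted p = 0.0208), and Selplg, a selectin ligand gene, -0.42 ± 0.11 (adjusted p = 0.0154). The higher ones were the interleukin-10 receptor gene Il10ra at 0.54 ± 0.12 (adjusted p = 0.0076) and the phospholipid acyltransferase gene Lpcat2 at 0.29 ± 0.075 (adjusted p = 0.0168). Of the general myeloid genes, 4 of 17 were higher and 0 lower (median 0.12), and of the LPS activation genes 12 of 17 were higher and 0 lower (median 1.10). Cxcl10 had a log2 difference of 2.94 ± 0.39 (adjusted p = 1.92e-04). Of the disease-associated genes 1 of 15 was higher, Csf1, which was also among the ligands (0.33 ± 0.064, adjusted p = 0.00314). In the TGF-beta list 4 of 12 were lower, Tgfb3, Tgfbr1, Tgfbr2 and the inhibitor gene Smad7, and 1 was higher, Nrros (median -0.088). Smad7 had a log2 difference of -0.39 ± 0.074 (adjusted p = 0.00298) and Tgfbr1 of -0.34 ± 0.080 (adjusted p = 0.011). Of the lineage factors only Irf8 was called, higher by 0.79 ± 0.14 (adjusted p = 0.00192), and Spi1 had 0.20 ± 0.16 (adjusted p = 0.402). Of 10 endothelial markers 4 were lower and 1 higher in LPS libraries labelled Lcn2-/-, and each other marker list of another cell type had at most 1 gene called in each direction. The part of the activation genes and of these cells in the differences of the signature genes was not tested.

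After saline the genotype label went with no called difference in the signature. Of the 9 genes 0 were higher and 0 lower by limma, where 0.0346% and 0.0115% of all tested genes were, and 0 of the 9 reached an unadjusted p under 0.05 (the lowest was 0.329). The log2 differences lay between -0.22 for Gpr34 (95% interval -0.75 to 0.30) and 0.11 for P2ry13 (95% interval -0.25 to 0.46). For Csf1r the difference was 0.0028 with the narrowest interval, -0.071 to 0.077. No gene of the 9 had groups that did not overlap, where 2.35% of all tested genes were lower and 2.84% higher in all saline libraries labelled Lcn2-/-.

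The LPS differences of the genotypes were compared by the interaction of label and injection, which for Sall1 alone passed the test. Of the 9 genes 1 was called with a more negative LPS difference in libraries labelled Lcn2-/-, where 4.92% of all tested genes were, and 0 with a more positive one, where 3.9% were. By limma at an unadjusted p under 0.05, 2 were more negative and 1 more positive. The share of all tested genes at an unadjusted p under 0.05 was not computed, here or for the counts above. Sall1 had an interaction of -0.56 ± 0.13 (adjusted p = 0.0214), and without WT saline replicate 3 it missed the threshold (-0.52, adjusted p = 0.0502). Tmem119 had -0.46 ± 0.15 (adjusted p = 0.0635) and passed without LPS replicate 1 labelled Lcn2-/- (-0.54, adjusted p = 0.0284) and with a quality weight for each library (-0.37, adjusted p = 0.0458). For the genes called between the labels after LPS, Gpr34 had -0.73 ± 0.35 (adjusted p = 0.184) and Siglech 0.27 ± 0.12 (adjusted p = 0.154), so a difference in their LPS response was not shown. P2ry12, with the second largest LPS decrease of the 9, had -0.090 ± 0.16 (95% interval -0.43 to 0.25, adjusted p = 0.741). Among the lists, 10 of 17 LPS activation genes had a more positive LPS difference under the Lcn2-/- label and 0 a more negative one, and Irf8 had 0.91 ± 0.20 (adjusted p = 0.0149).

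Likeness of pattern was described by the root mean square difference over the 16 libraries between log2 levels, each gene centred on its WT saline mean, so that a small value means a like profile. Among the 9, Cx3cr1 and Sall1 were closest at 0.213, and Gpr34 was far from all, no nearer than 1.27 to P2ry12. Closest to P2ry12 of all tested genes were Slc22a8 at 0.172, Itm2a at 0.250 and Ushbp1 at 0.269. Closest to Gpr34 were AU021092 at 0.484, Slc38a5 at 0.577 and Slco1a4 at 0.750, and closest to Sall1 were Jcad at 0.127, Cckbr at 0.139 and Fgd2 at 0.174. Cx3cr1 shared Cckbr at 0.159 and Fgd2 at 0.189 with it and had Adgre5 at 0.194. Siglech had Gli3 at 0.157, Lrrc75a at 0.160 and Plekho2 at 0.161, and Trem2 had Cyp26b1 at 0.115, Pdlim3 at 0.121 and Gab1 at 0.124. P2ry13 had Sh3d19 at 0.166, Capn3 at 0.173 and Sh3rf3 at 0.186. The patterns of Tmem119 (Zfp84, Kcnj9 and Tspan14, at 0.0871 to 0.0882) and Csf1r (Evi5l, Myh10 and Etl4, at 0.0320 to 0.0391) were common: 709 and 8594 genes lay within 0.2 of them, against 1 for P2ry12 and 0 for Gpr34. All libraries of a group share its treatment and normalization, so they are not independent points.

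Within groups the 9 genes did not rank the libraries alike in every case. LPS replicate 1 was the highest of the libraries labelled Lcn2-/- for 6 of the 9 genes, and WT LPS replicate 3 was the highest of its group for 6. Saline replicate 4 labelled Lcn2-/- was the highest of its group for 4 genes and the lowest for 4. Its P2ry12 and Cx3cr1 were the highest of the group, at 7.97 and 7.50 RPKM, and its Gpr34 and Trem2 the lowest, at 2.03 and 1.23 RPKM.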

How the data were processed

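Total RNA of 16 hemi-brains was sequenced as Illumina libraries. The authors deposited 1 table of log2 RPKM values per gene after conditional quantile normalization (CQN), which adjusts for GC content and length. This is how the deposited table is named; its column headers say gene count, but the values are not whole and reach below 0. The build was mm10, per the submitters' processing notes; the aligner, the counter and the use of strand are not stated in the sources used here. CQN brings the distributions of the libraries towards each other, so a shift of all genes cannot be seen. The upper part was alike, with a 75th percentile of 2.25 log2 RPKM in all 16 libraries. The low end was not alike and differed by injection: the 25th percentile of log2 RPKM lay between -5.78 and -4.58 in LPS libraries and between -4.12 and -2.73 in saline libraries.

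Of 33289 gene IDs, 98.2% were given symbols and positions from GENCODE vM21 (GRCm38). Genes with log2 RPKM of at least -1 (0.5 RPKM) in at least 3 libraries were tested with limma 3.58.1 in R 4.3.3, in 1 fit over all 4 groups with an empirical Bayes trend, without covariates. P-values were Benjamini-Hochberg adjusted over 17349 genes. RPKM are 2 to the power of the deposited values, and group means are given as mean ± SD of RPKM or as geometric means where so named. Replicate numbers only name libraries. The fit was tested on simulated data. Promoter windows came from RefSeq (GRCm38.p6).

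The members and lists were chosen with earlier results of these data known. The text names all 9 members, Lcn2, the 3 genes closest in pattern to each member and any ligand, TGF-beta or lineage gene; 1 gene is not reported here by name. From the other lists it takes the called gene with the largest change in each direction in WT and, for microglial and general myeloid lists, the uncalled gene with the highest mean log2 level. Med12l, P2ry1, P2ry6, P2ry14, Ccr2, Ly6c2, Ly6g and the genes listed as differing between labels after LPS were chosen after their values were seen. Alternatives covered offsets of 0.5 and 0.1 RPKM, filters, the limma settings, centring, GC and length trends, and leaving out each library.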

Additional observations from a re-analysis of the deposited data

Results flagged for a closer look

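Among 36 combinations of a member and a group, 2 had 1 library far from the other 3, by Dixon's test at the 95% level, which chance passes in about 1 of 20 groups. Gpr34 in saline replicate 4 labelled Lcn2-/- was the lowest of its group, at 2.03 RPKM against 3.19 to 3.38 RPKM in the other 3, and the gap to the nearest was 0.885 of the group's range. That library also held the most genes at 0.5 RPKM or more. Without it the LPS difference of Gpr34 under that label was -4.24 on the log2 scale, against -4.07 with it. Csf1r in WT LPS replicate 4 was the lowest of its group, at 10.2 RPKM against 10.9 to 11.03 RPKM in the other 3, and the gap was 0.863 of the range.

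The LPS difference of Sall1 differed between the genotype labels, by -0.559 on the log2 scale in the limma interaction test (adjusted p = 0.0214). Sall1 was lower after LPS in 4 of 4 libraries under each label, and the LPS libraries labelled Lcn2-/- lay below the WT LPS libraries.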

How the results depend on the processing

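Over 26 alternative settings, 1161 values of single members were recomputed: 1121 kept their direction and their side of the threshold, 14 lost the call, 8 gained it and 18 changed sign. The changed calls are given beside their results. All sign changes were in differences that had not passed the test, and their cause was not tested. Between the labels after saline, array weights gave 0.035 for Trem2, -0.024 for Tmem119 and -0.019 for Sall1, and removing GC and length trends gave -0.0068 for Csf1r and -0.0081 for Sall1. Leaving out each library in turn gave ranges there of -0.084 to 0.033 for Cx3cr1, -0.0095 to 0.021 for Csf1r, -0.22 to 0.027 for Trem2, -0.017 to 0.10 for Tmem119 and -0.038 to 0.093 for Sall1. The P2ry12 interaction ranged from -0.18 to 0.013.

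Counts over all genes moved by more than 1.5 times in several settings, whose cause was not tested. Without the filter on low values, 13898 genes fell in libraries labelled Lcn2-/- and 11480 in WT, 2 were higher and 1 lower between labels after saline, and the interaction gave 418 higher and 487 lower. With array weights 3669 fell in WT, 2393 were higher and 2902 lower between labels after LPS, 27 and 7 after saline, and the interaction gave 1383 and 1647, with 2 members lower. With the compared groups alone the counts were 2088 and 2305 after LPS and 2 and 1 after saline, and removing GC and length trends left 1 lower after saline. Leaving out each library, 9 members fell under the Lcn2-/- label and between 7 and 8 in WT, between 1 and 4 were lower between labels after LPS, and between 0 and 2 in the interaction. Over all genes the ranges were 1677 to 2581 higher and 1927 to 3442 lower in WT, 725 to 2376 and 807 to 2798 between labels after LPS, 2 to 9 and 1 to 4 after saline, and 348 to 1046 and 379 to 1221 in the interaction. The highest counts between labels came without saline replicate 4 labelled Lcn2-/-. Set against the median rather than the mean of the general myeloid genes, the median member difference was -1.16 in libraries labelled Lcn2-/- and -1.44 in WT, against -1.36 and -1.23, and leaving out each library moved the value under the Lcn2-/- label between -1.54 and -1.22.

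No paired analysis was possible because the labels give no replicate numbers that join libraries across groups. With no counts, the error of low values such as Gpr34 after LPS cannot be separated from the spread between libraries.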
